A study of Mus musculus with 18 samples.

Results

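The genes of lipoprotein lipase and fatty acid uptake examined here were Lpl, Gpihbp1, Angptl4, Lmf1, Cd36, Vldlr, Fabp3, Fabp4, Fabp5 and Slc27a1. They were chosen by symbol, and all 10 were found among the 45151 gene symbols that the files of the 3 depots share. Adipocytes take fat from the blood by way of lipoprotein lipase, which they make and secrete. LMF1 matures the enzyme in the endoplasmic reticulum, GPIHBP1 carries it to the lumen of the capillary, and ANGPTL4 inactivates it. The released fatty acids enter the cell with the help of CD36 and the transport protein FATP1, encoded by Slc27a1, and are bound inside it by fatty acid-binding proteins, while the VLDL receptor binds triglyceride-rich lipoproteins. White fat stores these fatty acids, and brown fat burns a large part of them to make heat.

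RNA-seq profiles of 18 samples from wild type male C57BL/6J mice aged 16 weeks and kept on regular chow were compared. There were 6 samples of adipocytes from inguinal white fat (iWAT), 6 of adipocytes from epididymal white fat (eWAT) and 6 of whole brown fat (BAT). Collagenase freed the white adipocytes, which were skimmed off as they floated, while BAT was frozen as whole tissue. GEO lists the BAT samples both as tissue and as adipocytes, and the preparation protocol describes tissue. Depot and preparation therefore cannot be told apart in any comparison with BAT. In bulk RNA, fewer cells of a type and less RNA per cell cannot be told apart either.

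Each iWAT and BAT file held 1 row per gene with merged exons, and each eWAT file held 1 row per transcript. The merged row was used for iWAT and BAT, and the transcript row with the most reads was used for eWAT. Levels are given as RPM, the reads of a row per 1000000 reads of the sample's total, or as RPKM, which also divides by row length. Neither applies the TMM factors, the scaling between samples used in the fits. Scaling by totals alone put the median log2 difference of all rows at 0.27 for iWAT and 0.36 for eWAT against BAT. Statements on overlap of RPM hold on that scale only. The totals were 22929576 to 32141048 reads in iWAT, 26607733 to 34048018 in eWAT and 26706786 to 34512470 in BAT. Since the transcript rows are shorter than the merged rows for 8 of the members, eWAT comparisons were fitted on the reads as they are and again with a row length offset. For a gene whose transcript row is much the shorter, the first fit leans toward lower eWAT values and the second toward higher ones. For rows of equal length the second fit gives the lower eWAT value, since its scaling centres on the typical gap in length. Angptl4 and Fabp4 have an identical row in all files and can be compared directly.

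The labelled depots carried their adipocyte markers. The summed RPKM of 6 brown adipocyte markers was 3012 to 3753 in BAT, 79.8 to 125.9 in iWAT and 14.1 to 27.8 in eWAT. Other cell types were present too. All 9 endothelial markers had reads in every sample. Macrophage markers summed to 2057 RPKM in eWAT of mouse 15, where the rest of eWAT had 145.9 to 490.9. Skeletal muscle markers summed to 1454 RPKM in BAT of mouse 12, where the rest of BAT had 0.628 to 127.9. Epididymis markers summed to 82.5 RPKM in eWAT of mouse 14, 70.4 in that of mouse 15 and at most 3.56 in the rest. The 6 white adipocyte markers summed to 3649 RPKM in eWAT of mouse 15 and 7155 to 9536 in the rest. Within eWAT, mouse 15 was lowest for Lpl, Lmf1, Vldlr and Fabp4 and highest for Cd36 and Fabp5. Mouse 14 was highest there for Lpl, Vldlr and Fabp4. The part of these contents in the member values was not tested. A list of 9 early response and heat shock genes, among them Fos and Egr1, summed to 2618 to 3536 RPKM in iWAT, 1986 to 2851 in eWAT and 24.3 to 199.4 in BAT. These genes moved with the preparation in the same direction as the members that were higher in the white depots, and their part in those differences was not tested.

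Between iWAT and BAT, 6 members were higher in iWAT, 2 were lower and 2 did not pass the test. Lpl, Angptl4, Cd36, Fabp4, Fabp5 and Slc27a1 were the higher ones, and Fabp3 and Lmf1 were the lower ones. Of all 19733 rows tested, 67.6% were called, 34.0% as higher and 33.6% as lower in iWAT, so that 8 called members among 10 is not far from the share of all rows. The same 8 members had RPM that did not overlap between the 6 iWAT and 6 BAT samples, against 31.6% of all rows not overlapping with higher iWAT values and 16.0% with lower ones. Overlap after TMM scaling was not examined. Fold changes, their standard errors and adjusted p-values come from edgeR's quasi-likelihood test with Benjamini-Hochberg adjustment over all rows, with a threshold of 0.05. The members differed far more in the size of the change than the count shows, from no detectable difference for Gpihbp1 to a 372-fold difference for Fabp3.

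**Figure D1:**
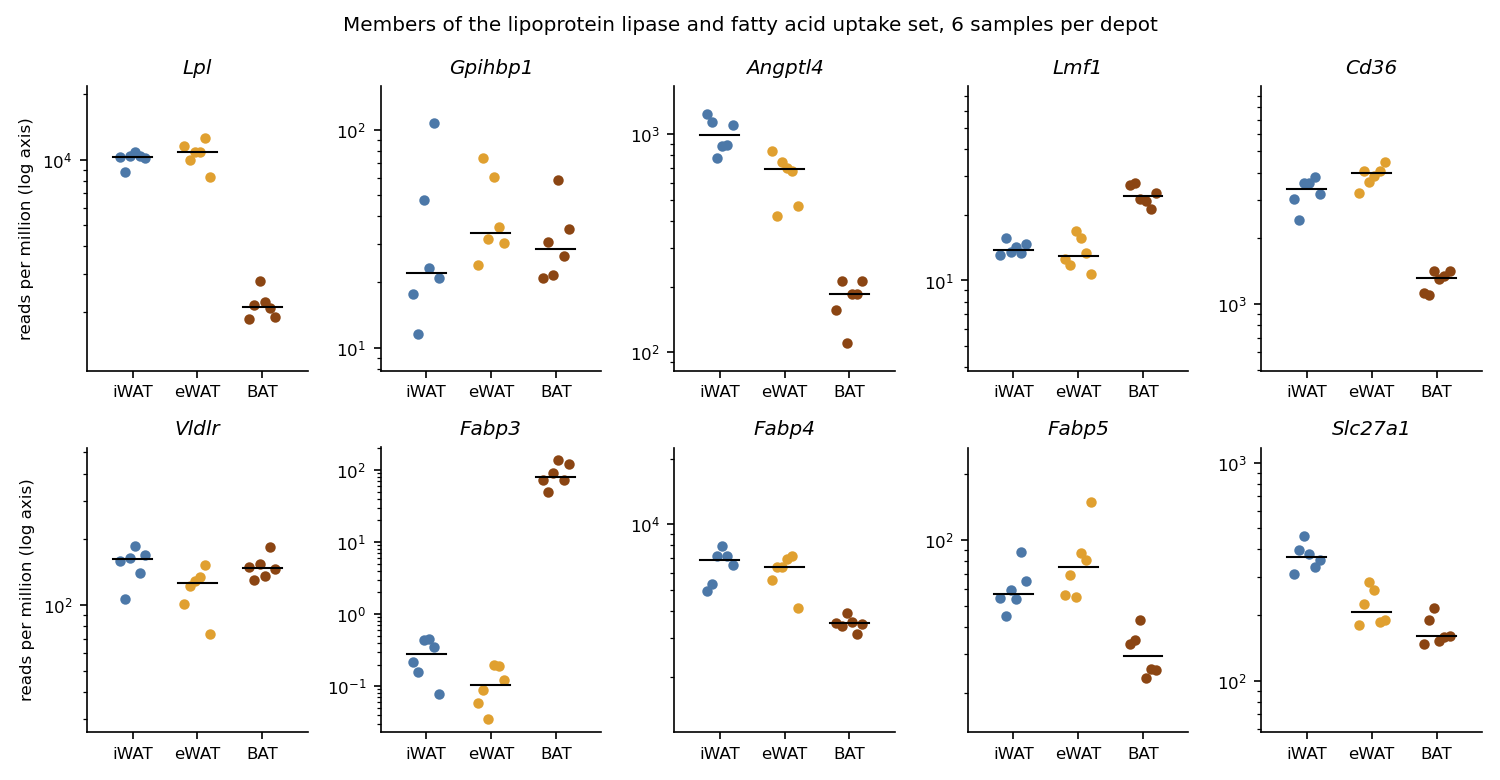
RPM values of the 10 members in each sample, on log axes, with 1 point per sample and a black line at the median of the 6 samples of a depot. Lpl and Angptl4 lay above BAT in every iWAT and eWAT sample, Fabp3 lay below BAT in all of them, and Gpihbp1 overlapped between all 3 depots.

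Lpl encodes the lipase itself (Gene ID 16956, mm9 chr8:71404390-71431347, plus strand). It was read at 8738 to 10784 RPM in the 6 iWAT samples, with a median of 10313. The eWAT samples ran from 8304 to 12611 with a median of 10851.5, and the BAT samples from 1853 to 2788 with a median of 2118. Every white adipocyte sample lay above every BAT sample. Lpl was 3.88-fold higher in iWAT against BAT (log2 fold change 1.96 ± 0.13 (SE), adjusted p = 1.2e-08, 95% interval 3.19- to 4.71-fold). Against BAT, eWAT was 3.92-fold higher on the reads and 7.57-fold higher with the length offset (adjusted p = 3.9e-10 and 4.4e-12). By mean RPKM, Lpl stood at rank 25 of all symbols in iWAT and 125 in BAT. An antisense row inside the gene, AK089741, took 68142 reads over the iWAT samples and 13221 over the BAT samples beside 1647762 and 400794 for Lpl. The strand setting of the counts is not given, so whether the pair shares reads is not known.

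Whether Lpl differed between the white depots was not settled by these files. The log2 difference of iWAT against eWAT was -0.06 on the reads (adjusted p = 0.76, 95% interval -0.34 to 0.22) and -0.99 with the length offset (adjusted p = 1.4e-05). The merged Lpl row spans 10478 bases and the eWAT transcript row 4115 bases, which sets the gap between these values.

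Lmf1, the maturation factor (Gene ID 76483, mm9 chr17:25716119-25800072, plus strand), went the other way from its client enzyme. It was read at 13.04 to 15.6 RPM in iWAT, with a median of 13.8, and at 21.3 to 28.0 in BAT, with a median of 24.5. The depots did not overlap, and Lmf1 was 2.12-fold lower in iWAT (log2 fold change -1.08 ± 0.09, adjusted p = 1.4e-07). Within a sample, Lpl RPKM was 949 to 1336 times that of Lmf1 in iWAT, 290 to 424 times in eWAT, on shorter rows, and 114 to 199 times in BAT. The eWAT samples gave 10.7 to 16.9 RPM, but no direction could be given for eWAT against BAT. The log2 difference was -1.21 on the reads and 1.64 with the length offset, since the merged row holds 17729 bases and the transcript row 1858.

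Angptl4 encodes a secreted inhibitor of the lipase that is induced by fasting (Gene ID 57875, mm9 chr17:33910695-33918520, minus strand). Its row of 3053 bases is the same in all files, so the 3 depots can be ranked. The iWAT samples held 780 to 1234 RPM with a median of 995, the eWAT samples 421 to 839 with a median of 689, and the BAT samples 111 to 213 with a median of 185. No BAT sample reached the lowest white adipocyte sample, while iWAT and eWAT overlapped in part. Angptl4 was 4.77-fold higher in iWAT against BAT (log2 fold change 2.25 ± 0.16, adjusted p = 3.0e-08). In the fit limited to rows shared by all files it was 3.13-fold higher in eWAT than in BAT (95% interval 2.38 to 4.12) and 1.62-fold higher in iWAT than in eWAT (1.24 to 2.12, adjusted p = 0.016). With all eWAT transcript rows of a gene summed, which counts shared reads more than once, the log2 difference of iWAT against eWAT was 0.19 (adjusted p = 0.37). The summed early response genes ran in the same order of depots, iWAT, eWAT and BAT, by their medians of 2915, 2372 and 46.8 RPKM, and their part in the Angptl4 difference was not tested.

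The lipase and its inhibitor stood in a like proportion in iWAT and BAT. Lpl RPKM was 3.04 ± 0.67 times Angptl4 RPKM in iWAT and 3.86 ± 1.74 times in BAT (SD, n = 6 each). The ranges overlapped, from 2.24 to 3.89 in iWAT and from 2.60 to 7.35 in BAT. In eWAT, where the Lpl row is the shorter one, the ratio was 12.8 ± 2.67, from 10.2 to 17.5. The highest BAT ratio came from mouse 8, which had the lowest Angptl4 and the highest Lpl of that depot.

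Gpihbp1 encodes the endothelial protein that binds the lipase and moves it across the capillary wall (Gene ID 68453, mm9 chr15:75427072-75429911, plus strand). It was read at 11.5 to 107.6 RPM in iWAT with a median of 21.9, at 23.9 to 74.3 in eWAT with a median of 33.7, and at 20.9 to 59.0 in BAT with a median of 28.4. All 3 ranges overlapped, and the spread in iWAT was 9.33-fold from the lowest to the highest sample. The log2 difference of iWAT against BAT was -0.0028 ± 0.46 (adjusted p = 0.996, 95% interval -0.99 to 0.99), an interval that holds differences of nearly 2-fold in either direction. Leaving out the iWAT sample of mouse 14 moved that difference to -0.67, and the mouse number as a block moved it to -0.93 (adjusted p = 0.10). Against BAT, eWAT differed by 0.09 on the reads (adjusted p = 0.86) and by 1.04 with the length offset (adjusted p = 0.040).

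The level of Gpihbp1 moved with the endothelial markers of the same sample. The 9 markers, Pecam1, Cdh5, Kdr, Tek, Tie1, Esam, Emcn, Egfl7 and Cldn5, summed to 65.3 to 363.9 RPKM in iWAT, 172.9 to 399.3 in eWAT and 66.2 to 158.2 in BAT. The highest sample of each depot, mouse 14 in iWAT, mouse 8 in eWAT and mouse 11 in BAT, was also the highest for Gpihbp1. Gpihbp1 RPKM came to 8.17% to 14.2% of the summed markers in iWAT and 11.7% to 17.9% in BAT, which is a narrower spread than that of its level. In eWAT it came to 16.99% to 22.9%, on shorter rows. Among 4367 rows with at least 10 RPKM in iWAT or BAT, the 3 with the pattern most like Gpihbp1 over the 12 samples were Cdh5, the endothelial cadherin, Ly6c1 and Aqp1. They differed from it by a root mean square of 0.23, 0.26 and 0.26 on the log2 scale after centring.

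**Figure D2:**
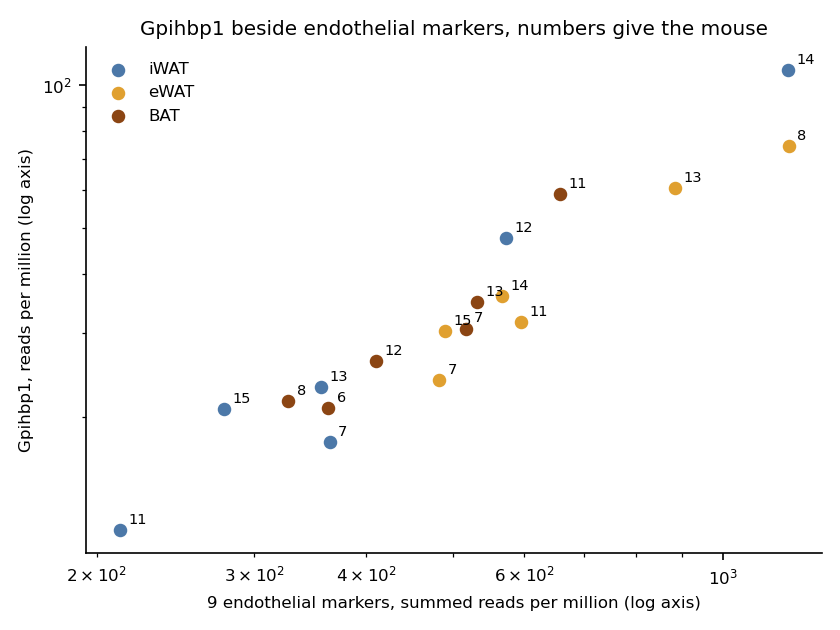
Gpihbp1 in RPM against the summed RPM of 9 endothelial markers, both on log axes, with 1 point per sample, the depot by colour and the mouse by number. The samples with the most endothelial reads, iWAT 14 and eWAT 8, had the highest Gpihbp1, and iWAT 11 had the least of both.

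With the lipase made in adipocytes and its carrier made in capillaries, the ratio of the pair differed between the preparations. Lpl RPKM was 19.1 to 150.6 times Gpihbp1 RPKM in iWAT, with a median of 95.3, and 7.49 to 25.6 times in BAT, with a median of 14.9. On the shorter eWAT rows it was 26.4 to 95.5 times, with a median of 60.9. The lowest iWAT ratio, from mouse 14, fell inside the range of BAT. The floating layer of adipocytes and the frozen tissue need not hold the same share of capillaries, and this ratio cannot be told apart from that share.

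Cd36 encodes the fatty acid translocase of the adipocyte surface, which capillary endothelium and macrophages express too (Gene ID 12491, mm9 chr5:17287508-17394777, minus strand). It was read at 2414 to 3805 RPM in iWAT with a median of 3375, at 3218 to 4482 in eWAT with a median of 3972, and at 1096 to 1412 in BAT with a median of 1321. White and brown samples did not overlap. Cd36 was 2.11-fold higher in iWAT against BAT (log2 fold change 1.08 ± 0.13, adjusted p = 3.4e-06). In eWAT it was 2.42-fold higher than in BAT on the reads and 4.21-fold higher with the length offset (adjusted p = 4.3e-08 and 5.8e-11). The highest iWAT value came from mouse 14, the sample with the most endothelial reads, and the highest eWAT value from mouse 15, the sample with the most macrophage reads. The part of these cells in the Cd36 values was not tested.

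Promoters in RefSeq were matched for 5 members, Lmf1, Cd36, Vldlr, Fabp3 and Slc27a1, in 8 windows of 250 bases before to 50 bases after a transcription start (GRCm38.p6). The windows of Cd36 and Fabp3 are shown because these genes had opposite orders of depots, Cd36 with the higher level in white adipocytes and Fabp3 in BAT. Capitals mark letters searched for on both strands, namely TATAAA, the CCAAT box, the GC box GGGCGG, the opening letters TGACGT of the cAMP response element, and DR1, a direct repeat of AGGTCA with 1 base between the copies, of the kind PPAR and RXR bind. No searched motif overlapped another in these windows.
Cd36 (chr5:17835847-17836146, minus strand): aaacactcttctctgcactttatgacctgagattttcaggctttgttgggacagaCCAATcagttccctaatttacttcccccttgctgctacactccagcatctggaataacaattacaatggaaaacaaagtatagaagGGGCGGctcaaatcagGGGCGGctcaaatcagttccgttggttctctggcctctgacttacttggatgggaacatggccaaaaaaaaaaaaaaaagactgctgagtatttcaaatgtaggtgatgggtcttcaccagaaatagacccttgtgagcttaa
Fabp3 (chr4:130308488-130308787, plus strand): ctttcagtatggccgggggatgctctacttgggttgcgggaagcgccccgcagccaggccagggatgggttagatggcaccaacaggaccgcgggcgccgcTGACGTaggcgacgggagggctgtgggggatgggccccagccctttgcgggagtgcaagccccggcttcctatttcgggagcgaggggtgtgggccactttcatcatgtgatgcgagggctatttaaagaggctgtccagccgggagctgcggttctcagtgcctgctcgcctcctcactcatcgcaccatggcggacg
The Cd36 window held CCAAT from -195 to -191 and GGGCGG from -109 to -104 and from -93 to -88. The Fabp3 window held TGACGT from -149 to -144. Of all 32851 RefSeq promoter windows, 37.4% held CCAAT, 35.7% GGGCGG, 7.51% TGACGT, 13.6% TATAAA and 0.0396% DR1. Neither window held TATAAA or the direct repeat. These are matches of letters and carry no measurement of binding.

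Slc27a1 encodes FATP1, an insulin-responsive fatty acid transport protein with acyl-CoA synthetase activity (Gene ID 26457, mm9 chr8:74092781-74111201, plus strand). The iWAT samples held 307 to 459 RPM with a median of 369, the eWAT samples 180 to 282 with a median of 207, and the BAT samples 148 to 215 with a median of 159. Each iWAT sample lay above each sample of the other depots, while eWAT and BAT overlapped. Slc27a1 was 1.80-fold higher in iWAT against BAT (log2 fold change 0.85 ± 0.12, adjusted p = 2.9e-05). In eWAT against BAT the log2 difference was 0.03 on the reads (adjusted p = 0.84) and was called with the length offset, at 0.42 (adjusted p = 0.0088), with summed transcript rows, at 0.98 (adjusted p = 2.3e-06), and on RPKM by limma, at 1.15 (adjusted p = 1.3e-07). Its order between the white depots depended on the scale. It was 1.71-fold higher in iWAT than in eWAT on the reads and 1.32-fold higher with the length offset (adjusted p = 0.00034 and 0.017), yet mean RPKM was 67.4 ± 9.74 in iWAT and 68.9 ± 13.4 in eWAT (SD, n = 6 each).

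Cd36 exceeded Slc27a1 in every sample, as measured per length. Cd36 RPKM was 4.11 to 7.78 times that of Slc27a1 in iWAT, 11.5 to 21.3 times in eWAT and 3.91 to 5.97 times in BAT. The iWAT and BAT ranges overlapped, and the eWAT ratios rest on single transcripts.

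Vldlr encodes the VLDL receptor, a partner of the lipase in the uptake of triglyceride-rich lipoproteins (Gene ID 22359, mm9 chr19:27290974-27328721, plus strand). Its RPM were 106.7 to 185.5 in iWAT with a median of 161.7, 73.9 to 152.2 in eWAT with a median of 125.4, and 129.9 to 183.7 in BAT with a median of 147.8. All 3 ranges overlapped. The log2 difference of iWAT against BAT was -0.23 ± 0.13 (adjusted p = 0.14, 95% interval -0.52 to 0.06), and it was 0.04 when samples were scaled by total reads alone. Against BAT, eWAT was lower, with a log2 difference of -0.67 on the reads and -0.40 with the length offset (adjusted p = 0.00066 and 0.030), but this call was not stable. It was lost with scaling by total reads alone, at -0.33 (adjusted p = 0.060). RPKM values tested with limma gave 0.29 in the other direction (adjusted p = 0.074), and summed transcript rows were called higher in eWAT, at 0.44 (adjusted p = 0.013).

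Fabp4, the adipocyte fatty acid-binding protein aP2, was among the most abundant transcripts of each depot (Gene ID 11770, mm9 chr3:10204342-10208576, minus strand). It ranked 6 by mean RPKM in iWAT, 7 in eWAT and 12 in BAT. Its row of 642 bases is shared by all files. RPM values were 4919 to 7940 in iWAT with a median of 6844, 4142 to 7143 in eWAT with a median of 6361, and 3148 to 3928 in BAT with a median of 3513. In RPM, which leave out the TMM factors, both white depots lay above BAT without overlap. The log2 difference of eWAT against BAT was 0.79 with scaling by total reads and 0.45 with TMM, and overlap after TMM scaling was not examined. Fabp4 was 1.53-fold higher in iWAT against BAT (log2 fold change 0.62 ± 0.13, adjusted p = 0.00070). On the shared rows it was 1.48-fold higher in eWAT than in BAT (95% interval 1.19 to 1.83), while with the length offset over all symbols the log2 difference was 0.06 (adjusted p = 0.74). Between the white depots the log2 difference was 0.11 on the reads (95% interval -0.18 to 0.41) and 0.15 on shared rows, neither of them called. With the length offset Fabp4 was called 1.45-fold higher in iWAT than in eWAT (95% interval 1.17 to 1.80, adjusted p = 0.0054).

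Fabp5, the epidermal fatty acid-binding protein, is expressed in adipocytes and strongly in macrophages and endothelium (Gene ID 16592, mm9 chr3:10012589-10016610, plus strand). It was read at 44.9 to 88.3 RPM in iWAT with a median of 56.7, at 54.8 to 149.1 in eWAT with a median of 75.3, and at 23.4 to 42.9 in BAT with a median of 29.5. In RPM the white samples lay above the BAT samples, if narrowly in iWAT, and overlap after TMM scaling was not examined. Fabp5 was 1.62-fold higher in iWAT (log2 fold change 0.70 ± 0.19, adjusted p = 0.0052) and 2.12-fold higher in eWAT (adjusted p = 0.00067) than in BAT, or 1.61-fold in eWAT with the length offset. The top values came from mouse 14 in iWAT and mouse 15 in eWAT, the samples with the highest endothelial and macrophage sums of those depots. Without these samples and the BAT sample of mouse 12, the log2 differences were 0.51 and 0.76. Rows on near-identical copies of Fabp5, Gm6166 and Gm14328, took 0.335 to 0.435 reads for each Fabp5 read over the 18 samples, and adding them left the iWAT difference at 0.70. A same-strand row over nearly all of the gene, Fabp5/Gm3601, held 10186 iWAT and 6272 BAT reads, beside 10075 and 5755 on the Fabp5 row. Reads held by both of these rows were not separated.

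**Figure D3:**
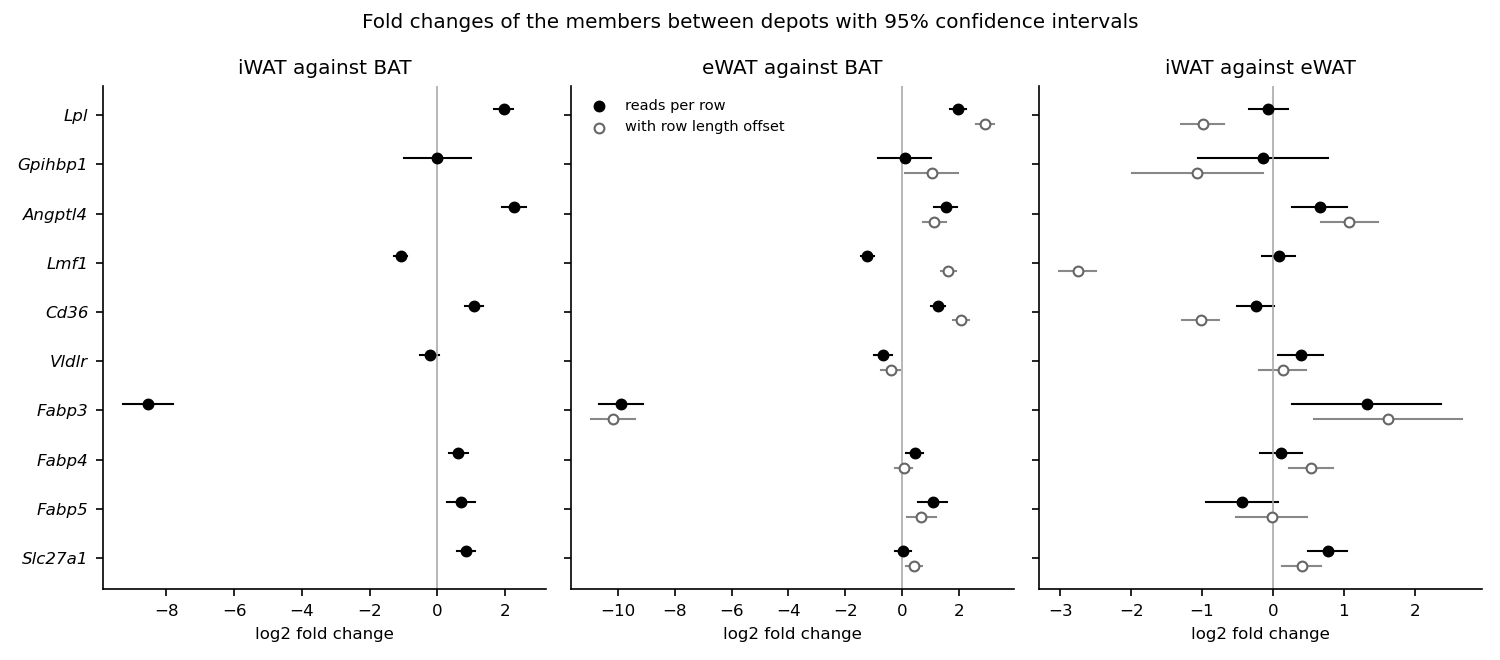
Log2 fold changes of the members for the 3 comparisons, with filled points for the fit on reads and open points for the fit with a row length offset, and lines for 95% confidence intervals. The depot named first is higher to the right of 0. For eWAT against BAT both fits give the same direction for every member except Lmf1, while Gpihbp1, Fabp4 and Slc27a1 were each called in a single fit.

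Fabp3, the fatty acid-binding protein of heart and other oxidative tissues, was the member with the largest difference (Gene ID 14077, mm9 chr4:129985839-129992707, plus strand). Single samples held 2 to 14 reads in iWAT and 1 to 6 in eWAT, against 1691 to 4156 in BAT. In RPM this was 0.0773 to 0.455 in iWAT with a median of 0.282, 0.0345 to 0.199 in eWAT with a median of 0.105, and 49.4 to 136.1 in BAT with a median of 81.5. Even the lowest BAT sample lay about 2 orders of magnitude above every white adipocyte sample. Fabp3 was 372-fold lower in iWAT against BAT (95% interval 223 to 622, log2 fold change -8.54 ± 0.34, adjusted p = 9.7e-11). It was 963-fold lower in eWAT on the reads and 1168-fold lower with the length offset (adjusted p = 8.1e-14 and 4.2e-14). These folds rest on few white adipocyte reads, 47 over all iWAT samples and 21 over all eWAT samples. Between iWAT and eWAT the log2 difference was 1.32 on the reads (adjusted p = 0.060) and 1.62 with the length offset (adjusted p = 0.011).

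A large share of reads from Fabp3 sequence lay on another row. Fabp3-ps1 is a single-exon row of 402 bases on the minus strand of chromosome 10, beside 892 bases for the merged Fabp3 row. The genome there matches the Fabp3 transcript with 99.1% identity over 754 bases (mm9 chr10:86194498-86195251). A second row on this stretch, BC030307 of 5034 bases, held 17 to 34 reads in iWAT and 41 to 70 in BAT and was not counted as a copy. In BAT the Fabp3-ps1 row held 3210 to 8038 reads, which is 1.86 to 1.95 reads for each read of Fabp3 in the same sample. That ratio was nearly constant, although Fabp3 itself varied 2.76-fold between BAT samples. In the white adipocyte samples the copy held 3 to 30 reads in iWAT and 3 to 15 in eWAT. Reads of such a pair cannot be assigned to either row with certainty. With the copy's reads added, the values were 0.193 to 1.29 RPM in iWAT, 0.138 to 0.580 in eWAT and 143.1 to 399.4 in BAT, and the log2 differences against BAT were -8.83 for iWAT and -9.99 for eWAT.

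**Figure D4:**
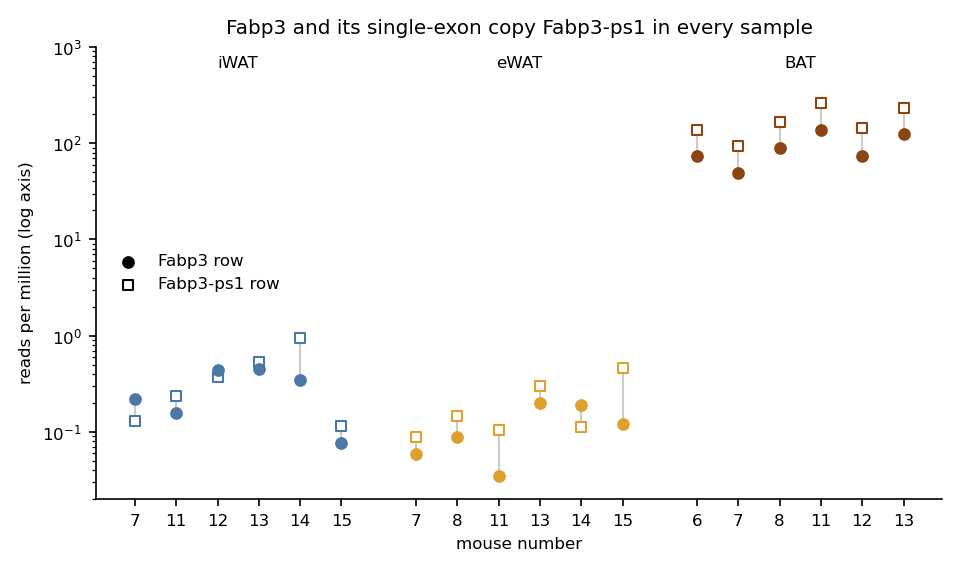
RPM values, on a log axis, of the Fabp3 row (filled circles) and the Fabp3-ps1 row (open squares) in each sample, with the mouse number below. Both rows were under 1 RPM in every white adipocyte sample, and in every BAT sample the copy held more reads than Fabp3.

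The skeletal muscle markers and Fabp3 had their highest BAT values in different samples. The highest Fabp3 value, 136.1 RPM, came from mouse 11 with a muscle marker sum of 8.71 RPKM. The BAT sample of mouse 12, with a sum of 1454 RPKM, held 73.1 RPM. Without that sample, the iWAT sample of mouse 14 and the eWAT sample of mouse 15, the log2 differences against BAT were -8.67 for iWAT and -10.00 for eWAT. The part of muscle in the Fabp3 values was not tested. Antisense rows overlapped the ends of Fabp3, with 3262 iWAT and 4599 BAT reads on Zcchc17 and 5 and 355 on Gm10570.

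The 3 fatty acid-binding proteins were also compared per length within each sample. Fabp4 made up 99.2% to 99.5% of their summed RPKM in iWAT, 97.6% to 99.4% in eWAT and 96.9% to 98.3% in BAT. Fabp3 made up 1.81% ± 0.63 in BAT and 0.0030% ± 0.0013 in iWAT (SD, n = 6 each). With reads of the copies added to Fabp3 and Fabp5, the Fabp3 share in BAT was 5.04% ± 1.71. In BAT, Fabp3 thus had a higher level per length than Fabp5, at 101.8 ± 37.0 against 32.6 ± 7.85 RPKM, while in iWAT it had the lower one, at 0.315 ± 0.173 against 64.1 ± 15.8.

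The rows most like Fabp3 over the 12 iWAT and BAT samples were Slc27a2, the Fabp3-ps1 row and AK080254. They differed from it by a root mean square of 0.51, 0.62 and 0.66 on the centred log2 scale. Slc27a2 encodes FATP2, a transporter and very long-chain acyl-CoA synthetase, and its mean RPKM was 0.034 in iWAT and 26.5 in BAT. The rows most like Lpl were Cav1, Mpp1 and Atxn10, at 0.13, 0.15 and 0.16. For genes with a large step between iWAT and BAT, this likeness mainly reflects a step of like size. In iWAT and BAT, mean RPKM was 853 and 189 for Cav1, 20.4 and 4.13 for Mpp1, and 23.0 and 4.66 for Atxn10. Cav1 encodes caveolin-1, the coat protein of caveolae, in which CD36 resides.

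In eWAT against BAT, 5 members were higher, 3 lower and 2 not called on the reads, and 7 were higher, 2 lower and 1 not called with the length offset. Of all 18383 symbols tested, 70.3% were called on the reads, 35.6% as higher and 34.7% as lower in eWAT, and 73.9% with the offset, 39.9% as higher and 34.0% as lower. Lpl, Angptl4, Cd36 and Fabp5 were higher, and Fabp3 and Vldlr lower, in both. The call of Vldlr was not stable, and with summed transcript rows Vldlr was called higher in eWAT, at 0.44. RPM values did not overlap for 5 members with higher eWAT values and 2 with lower ones, against 34.3% and 17.2% of all symbols. This comparison shares its BAT samples with the one of iWAT.

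Between the white depots fewer members were called. On the reads, Angptl4 and Slc27a1 were higher in iWAT and 8 members were not called, against 25.6% of all symbols called, 13.4% as higher and 12.3% as lower. With the length offset, 4 were higher and 3 lower, against 52.5% of all symbols, 24.2% as higher and 28.3% as lower. The 4 include Fabp3, which passed the read filter only through its BAT samples. Slc27a1 was the 1 member without overlap in RPM, where 5.94% of symbols were higher and 4.59% lower without overlap. Its merged row holds 5529 bases and its eWAT transcript row 3202. Per length its ranges overlapped, at 55.5 to 83.1 RPKM in iWAT and 56.3 to 88.1 in eWAT. Only Angptl4 and Fabp4 have a row shared by all files. Of these, Angptl4 alone was called in the same direction on reads, with the offset, on shared rows and on RPKM. It was not called with summed transcript rows.

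Other genes of the pathway were counted in 4 lists, and those at 10 RPKM or more in a depot are named. Of 15 genes of lipase maturation and control, 12 were tested between iWAT and BAT, and 8 were higher and 3 lower in iWAT, where 34.0% of all rows were called higher and 33.6% lower. The list had a median log2 fold change of 0.78, against 0.01 over all rows. Apoe, a ligand of lipoprotein receptors that macrophages make as well, was at 197 ± 49.3 RPKM in BAT, 1436 ± 263 in iWAT and 1232 ± 256 in eWAT (SD, n = 6 each, log2 fold change of iWAT against BAT 2.62). The 8 macrophage markers summed to 21.5 to 49.8 RPKM in BAT and 28.3 to 147.9 in iWAT, and their part in the Apoe values was not tested. Hspg2 and Sdc4, heparan sulfate proteoglycans of the kind the lipase binds to, were higher in iWAT by 1.30 and 2.08 on the log2 scale. The Sdc4 samples overlapped, at 18.7 to 97.1 RPKM in iWAT and 4.35 to 21.4 in BAT. Sdc1 was higher by 1.19, at means of only 1.54 RPKM in iWAT and 0.56 in BAT, and reached 10 RPKM in eWAT alone. Sel1l, which the lipase needs to leave the endoplasmic reticulum, and the proprotein convertase Pcsk6 were higher by 0.72 and 0.83. On the other side, Angptl8, a secreted regulator of the lipase, was lower in iWAT at 3.50 ± 0.93 RPKM against 12.5 ± 2.67 in BAT. Apoc1, an inhibitor of the lipase, and Furin, which cleaves it, were lower too, with log2 fold changes of -0.75 and -0.43.

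Fewer genes of this list were called between the white depots. Of 13 genes tested for maturation and control on the reads, 2 were higher and 3 lower in iWAT than in eWAT, beside 25.6% of all symbols called. The fit with the length offset had 4 higher and 3 lower, beside 52.5% of all symbols called. The differences that follow are those on the reads. Sdc1 was lower in iWAT with a log2 difference of -2.92, and its eWAT level was uneven between samples, from 3.55 to 49.5 RPKM. Sel1l differed by -0.28 and Pcsk6 by 0.70.

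Of 7 lipoprotein receptors and other lipases, 5 were tested between iWAT and BAT, and 3 were higher and 1 lower in iWAT, with a median log2 fold change of 0.56. That is 4 called of 5, beside 67.6% of all rows. Lrp1, the receptor for remnant particles, was at 31.4 ± 9.68 RPKM in iWAT, 31.6 ± 6.25 in eWAT and 8.60 ± 0.73 in BAT, with a log2 fold change of 1.61 for iWAT against BAT. Scarb1, the HDL receptor, was higher in iWAT than in BAT by 0.56.

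Of 20 genes of fatty acid transport, binding and activation, 10 were tested between iWAT and BAT, and 2 were higher and 4 lower in iWAT. The 6 called of 10 stand beside 67.6% of all rows, and the list had a median of -0.31. Cav1 was higher by 1.90, at 853 ± 103 against 189 ± 12.3 RPKM. Slc27a2 was lower, with a log2 fold change of -9.75, and so was Acsl5, an acyl-CoA synthetase, with -2.67. Acsl1, the main acyl-CoA synthetase of adipocytes, and Dbi, which carries acyl-CoA, did not pass the test between iWAT and BAT, at 0.24 and 0.02. On the reads both were called lower in eWAT than in BAT, at -0.70 and -0.36, and both had the other sign with the length offset.

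Of 8 PPAR and endothelial regulators, 3 were higher and 2 lower in iWAT than in BAT, which is 5 called of 8 beside 67.6% of all rows, with a median of -0.08. Ppara, the nuclear receptor of fatty acid oxidation, had 3.26 ± 0.64 RPKM in iWAT, 1.69 ± 0.52 in eWAT and 45.7 ± 9.03 in BAT. Its log2 fold change was -4.07 for iWAT and -5.16 for eWAT against BAT, and 1.04 for iWAT against eWAT, all called. Pparg, which drives adipocyte differentiation and many genes of fat uptake, had a small difference, at 104 ± 10.3 RPKM in iWAT and 73.7 ± 7.95 in BAT with a log2 fold change of 0.23 (adjusted p = 0.038). Rxra, the partner of both receptors, was higher in iWAT by 1.48. Vegfb, a vascular growth factor, and Flt1, which encodes its receptor, did not pass the test, at -0.09 and -0.72.

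**Figure D5:**
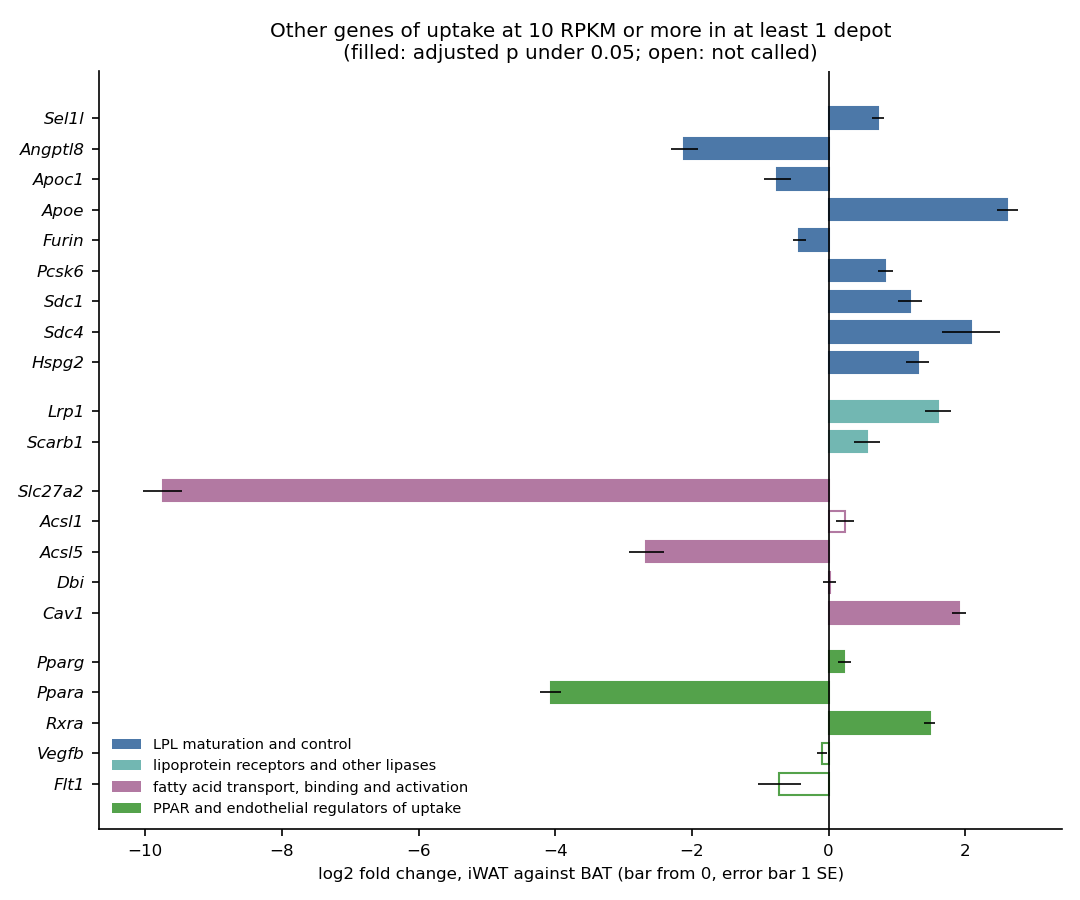
Log2 fold changes of iWAT against BAT for the pathway genes at 10 RPKM or more in a depot, as bars from 0 with 1 standard error, coloured by list and filled where the adjusted p was under 0.05. Slc27a2, Ppara, Acsl5 and Angptl8 reach furthest to the BAT side, and Apoe, Sdc4 and Cav1 furthest to the iWAT side.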

How the data were processed

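The authors sequenced NEBNext Ultra libraries on an Illumina HiSeq instrument and analysed the reads with the Genomatix Genome Analyzer on mm9. Their processing notes in GEO list cutadapt 1.16 and HISAT2 2.1.0. The counting rule, annotation release and strand setting are not given in the sources used here. The deposited files give read counts per row and the RPKM that the authors computed from them, which equal the reads divided by row length and a single total per sample. The 53445 merged rows of iWAT and BAT and the 189660 transcript rows of eWAT have 45151 symbols in common.

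Counts were tested with edgeR 4.0.16 (quasi-likelihood, TMM factors, R 4.3.3) on rows that reached 10 reads in 6 or more samples, over the 12 iWAT and BAT samples on merged rows, and over all 18 samples on 1 row per symbol for eWAT. p-values were adjusted by Benjamini-Hochberg. Intervals are 95% intervals of the fit. On simulated counts for iWAT against BAT with 19733 rows, 70 of 100 changes of 1 and 90 of 100 changes of 2 on the log2 scale were recovered, with 8 unchanged rows called. With 18383 rows, 69 and 89 of 100 were recovered for eWAT against BAT and 61 and 93 of 100 for iWAT against eWAT, with 11 and 5 unchanged rows called. Each simulation changed 200 rows around means common to all depots, with no difference in row length. These counts therefore do not test the scaling where most rows differ, or the gap in row length of eWAT. Copies of members were looked for with blastn in mm9, at 95% identity or more over 300 bases or more. Alternatives were DESeq2 1.42.0, limma 3.58.1 on log2 of RPKM plus 0.1 or 1, other scaling, no filter, shared rows, summed transcript rows, a row length offset, samples left out and a mouse block. Addition of copy rows was chosen after seeing the data.

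The members and lists were chosen with earlier results of these data known. All members were named, with list genes at a mean of 10 RPKM or more in a depot, and the 3 rows most like Lpl, Gpihbp1 and Fabp3 by centred log2(RPKM + 0.1). Each sample is taken as 1 mouse from the number in its title, and p-values measure the spread between these samples. BAT has 4 numbers in common with iWAT and 4 with eWAT, and the white depots have 5 in common. Deviations from the depot means of same-numbered samples had mean correlations of 0.034, -0.030 and -0.091 for these pairs of depots, so the block was kept as an alternative.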

Additional observations from a re-analysis of the deposited data

Results flagged for a closer look

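In each depot, the highest and lowest of the 6 values of each member were compared with the rest by Dixon's test, and 3 of the 30 sets of values held a sample set apart, where chance alone gives about 1.5. Lpl in iWAT was lowest in mouse 11 at 8738 RPM, with the others at 10222 to 10784. Gpihbp1 in BAT was highest in mouse 11 at 59.0 RPM, with the others at 20.9 to 34.9, and this sample also had the highest endothelial marker sum of BAT. Fabp5 in eWAT was highest in mouse 15 at 149.1 RPM, with the others at 54.8 to 87.3, and this sample had the highest macrophage marker sum of the series. The part of those cells in these values was not tested.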

How the results depend on the processing

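Leaving out 1 sample at a time gave 12967 to 13940 rows called for iWAT against BAT, 12580 to 13110 for eWAT against BAT and 3949 to 5228 between the white depots, with 8 members called in each such fit against BAT and 2 to 3 between the white depots. Over these fits the log2 difference of Gpihbp1 ran from -0.67 to 0.21 for iWAT against BAT, from -0.11 to 0.31 for eWAT against BAT and from -0.82 to 0.078 between the white depots, and that of Slc27a1 from -0.037 to 0.13 for eWAT against BAT, without a call. Leaving out the samples of iWAT 14, eWAT 15 and BAT 12 together turned only Fabp4 between the white depots, to -0.0053. Between the white depots Vldlr was called without eWAT 14 or iWAT 11, at 0.48 in both, and Fabp3 without iWAT 15, at 1.51. Fabp3 entered that fit only through its BAT reads.

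Scaling by total reads alone shifted the median of all rows by 0.27 for iWAT and 0.36 for eWAT against BAT. It gave 9107 higher and 4732 lower rows for iWAT, and 8946 and 4542 for eWAT, where TMM gave 6711 and 6626, and 6542 and 6375. Gpihbp1 and Vldlr in iWAT against BAT then stood at 0.24 and 0.044, and with no filter Gpihbp1 stood at 0.067, none of them called. In eWAT against BAT, scaling by total reads called Slc27a1 as higher, at 0.37 (adjusted p = 0.018), and lost the call of Vldlr, at -0.33 (adjusted p = 0.060).

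On the shared rows 3458 rows were called for iWAT against BAT, 3888 for eWAT against BAT and 737 between the white depots, since fewer rows were tested there. Of the members, Angptl4 and Fabp4 have such a row, and 2, 2 and 1 were called, with 3, 7 and 2 pathway genes. Between the white depots, 9661 rows were called by limma with a pseudocount of 0.1, 9507 with 1, 9649 with the length offset and 13584 with summed eWAT transcript rows. The members called there were 6, 5, 7 and 6 in the same order, and 4 by DESeq2. Pathway genes called were 25, 22 and 29 by both limma fits and the summed rows.

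Values that turned direction were mostly those of long genes in eWAT. Lmf1 in eWAT against BAT was 2.28 and 1.77 by limma with 0.1 and 1, 1.64 with the length offset and 0.046 with summed rows, and in iWAT against eWAT it was -3.03, -2.19, -2.75 and -1.15. Vldlr by limma with 0.1 and 1 was 0.031 and 0.030 for iWAT against BAT, 0.31 and 0.29 for eWAT against BAT and -0.28 and -0.26 between the white depots, and with summed rows it was 0.44 and -0.69 for the last pair, both called. Slc27a1 between the white depots was -0.023 and -0.022 by limma and -0.16 with summed rows. Summed rows also turned Fabp4 in eWAT against BAT to -0.37, a call, and Gpihbp1 to -0.44 there and 0.43 between the white depots. The limma values divide by row length with no TMM factor, and summed rows count reads shared by transcripts more than once.

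The labels share mouse numbers between depots, and a fit with the mouse number as a replicate block called 11711 rows for iWAT against BAT, 11401 for eWAT against BAT and 3153 between the white depots. Under the block Gpihbp1 was -0.93 in iWAT against BAT (adjusted p = 0.10) and -0.14 in eWAT against BAT, and no member gained or lost a call. Adding the copy rows changed no call of a member either.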
